A study of Homo sapiens with 9 samples.

Results

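The transcripts of the hypoxia-inducible factor (HIF) pathway followed here were those of 10 genes: the factor subunit genes HIF1A and EPAS1, the prolyl hydroxylase genes EGLN1 and EGLN3, and the hypoxia target genes VEGFA, ADM, CA9, ANKRD37, NDRG1 and BNIP3. Every probe set whose platform annotation held 1 of these symbols and no other was taken, which gave 20 of the 54675 probe sets in the table. These 20 covered 9 of the 10 genes, out of 19775 genes with a probe set of their own. No probe set was listed for CA9 under this rule, so CA9 was not analysed here. EGLN3 lay below the filter on dim genes, and the other 8 genes were tested.

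The cells were LiSa-2, a human liposarcoma cell line, grown on plates in medium with bovine serum. There were 3 groups of 3 arrays: cells treated with bovine testicular hyaluronidase (HAase) at 400 µg/mL for 24 h, cells treated with the same dose for 6 h, and cells given phosphate-buffered saline (PBS) and harvested at 24 h. HAase cleaves hyaluronan, a sugar polymer of the matrix around cells, and the series title names matrix remodeling, glucose metabolism and TXNIP as the subject of the study. The labels give no oxygen level and no group with inactivated enzyme. Whether the 3 samples of each group came from separate cultures is not stated, so the p-values reflect only the variation among these arrays, and part or all of it may be technical. Because PBS was taken at 24 h, 6 h of HAase and the earlier harvest cannot be told apart in any comparison that involves the 6 h arrays.

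HIF is a pair of subunits, an alpha subunit from HIF1A or EPAS1 and a stable partner from ARNT. When oxygen is present, the EGLN enzymes hydroxylate the alpha subunit, the VHL ubiquitin ligase complex binds it, and it is degraded. When oxygen is scarce the alpha subunit persists, binds DNA with ARNT and raises the transcription of genes for glycolysis, vessel growth and survival. Control is thus largely at the level of the protein, while the arrays measured mRNA.

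Arrays of 1 group correlated at 0.987 to 0.989 across all 19775 genes, and arrays of different groups at 0.968 to 0.979 (Pearson's r). The brightest of 27 control probe sets for bacterial transcripts, taken here as the limit of detection, lay between 34.2 and 65.0 on the 9 arrays. Of 7 mesenchymal and liposarcoma markers, 5 were above it on all arrays, with summed signals of 35285 to 43254 at 24 h, 39116 to 40013 at 6 h and 37370.4 to 39870.1 in PBS. Members of this list moved in both directions: HMGA2 rose (4.64 at 24 h and 3.47 at 6 h, above the limit on 1 of 3 PBS arrays, so that the sizes are uncertain), COL1A2 fell (-2.15 and -0.48) and PDGFRB rose at 6 h (1.14). Of 6 epithelial markers, EPCAM, CDH1, KRT19 and CLDN4 were at or below the limit on every array (sums of 204 to 268 at 24 h, 199 to 295 at 6 h and 184 to 262 in PBS). The list also held KRT8 and KRT18. In it, 1 marker was above the limit on all arrays, and the 2 tested were called in no comparison. PTPRC, LYZ and TYROBP among 5 leukocyte markers with a probe set were also at or below the limit on every array (116 to 143, 46.2 to 97.2 and 82.1 to 115). Of 6 endothelial markers, CDH5, TEK and CLDN5 were at or below it on every array and 1 was above it on all arrays. The sums were 432 to 463 at 24 h, 384 to 436 at 6 h and 285 to 354 in PBS. PECAM1, the tested endothelial marker, rose by 0.53 at 24 h and 0.40 at 6 h. Adipocyte markers moved with the treatment: 7 of the 7 tested were lower at 24 h and 5 of 7 at 6 h, and the 8 markers summed to 28975 to 33584 at 24 h, 44696 to 46879 at 6 h and 56742 to 58802 in PBS, with LEP at or below the limit on every array. RNA quality was read from control probe sets at the 2 ends of a transcript: for GAPDH, the 3' minus 5' log2 signal was -0.21 to -0.02 at 24 h, -0.06 to 0.04 at 6 h and -0.02 to 0.04 in PBS. For ACTB it was 1.38 to 1.62 at 24 h, 1.14 to 1.5 at 6 h and 1.56 to 1.70 in PBS. Their part in the results below was not tested.

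HIF1A and EPAS1 were both higher after HAase. HIF1A, the gene of the widely expressed alpha subunit, had signals of 17243.5, 17726 and 15595 at 24 h, 20525, 21120.4 and 20720.2 at 6 h, and 11410.1, 11748 and 11962.5 in PBS. No array of 1 group overlapped another group, and the order was 6 h, then 24 h, then PBS. On the scale log2(signal + 16), HIF1A rose by 0.52 ± 0.06 at 24 h (SE, n = 3 arrays per group; limma adjusted p = 2.49e-04) and by 0.83 ± 0.06 at 6 h (limma adjusted p = 2.66e-05), and 24 h was below 6 h (log2 fold change -0.30 ± 0.06, limma adjusted p = 0.00599). In such bulk samples, fewer cells with a transcript and less of it per cell cannot be told apart.

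EPAS1 encodes the other alpha subunit, HIF-2 alpha, which is prominent in endothelial and fat tissue. Its brighter probe set gave 16865, 16492 and 14729 at 24 h, 16122, 16442 and 16379.7 at 6 h, and 9629, 10634 and 11442 in PBS. The 2 HAase groups overlapped each other and both lay above PBS. The rise was 0.60 ± 0.08 at 24 h (SE; limma adjusted p = 5.56e-04) and 0.63 ± 0.08 at 6 h (limma adjusted p = 4.80e-04), and the 24 h minus 6 h difference of -0.03 had a 95% confidence interval of -0.21 to 0.16. A second, much dimmer probe set read 94.8, 63.7 and 93.5 at 24 h, 98.8, 128 and 115 at 6 h, and 55.5, 27.8 and 65.9 in PBS. It was above the limit of detection on 2 of the 3 PBS arrays. Its groups overlapped at 24 h against PBS, where it gave 0.64 without passing the test over all probe sets (limma adjusted p = 0.0771), and it passed at 6 h (1.03, limma adjusted p = 0.0125). With the mean of all EPAS1 probe sets as the gene's value, the call at 24 h was lost (0.30, limma adjusted p = 0.175) and another probe set lay under the filter. The log2 ratio of HIF1A to EPAS1 within an array, from their brighter probe sets, averaged 0.07 at 24 h, 0.35 at 6 h and 0.15 in PBS. The differences in that ratio were -0.08 at 24 h against PBS (exact permutation p = 0.3, two-sided), 0.20 at 6 h against PBS (p = 0.1, exact) and -0.28 between 24 h and 6 h (p = 0.1, exact), and 3 arrays against 3 cannot give a p below 0.1.

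EGLN1 was lower than PBS at 6 h, unlike HIF1A and EPAS1, and EGLN3 was not detected. EGLN1 encodes PHD2, the main oxygen-dependent hydroxylase of HIF alpha subunits and itself a HIF target. Its brightest probe set gave 1804, 1637 and 1798 at 24 h, 1388, 1338 and 1349 at 6 h, and 1627, 1750.0 and 1656 in PBS. The 6 h arrays were the low ones, and the 24 h and PBS arrays overlapped. EGLN1 fell by 0.30 ± 0.06 at 6 h (SE; limma adjusted p = 0.00412), and at 24 h it was above 6 h by 0.36 ± 0.06 (limma adjusted p = 0.00244). At 24 h against PBS the change was 0.06 with a 95% confidence interval of -0.08 to 0.19. The other tested EGLN1 probe sets were dimmer and called in no comparison: 1 gave 0.17 at 24 h, -0.10 at 6 h and 0.27 between the times, and the other -0.24, -0.44 and 0.20. With the mean of its probe sets, EGLN1 passed neither at 6 h (limma adjusted p = 0.107) nor between the times (limma adjusted p = 0.0947).

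EGLN3 encodes PHD3, a related hydroxylase that hypoxia induces in many cell types. Its brighter probe set read 14.7, 21.4 and 1.29 at 24 h, 24.3, 15.97 and 22.04 at 6 h, and 9.16, 17.8 and 7.40 in PBS. Both EGLN3 probe sets lay at or below the limit of detection on all 9 arrays, so the signals carry no order between the groups. When the filter on dim genes was left off, EGLN3 gave -0.00 at 24 h (limma adjusted p = 0.999), 0.43 at 6 h (0.334) and -0.43 between the times (0.371).

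**Figure D1:**
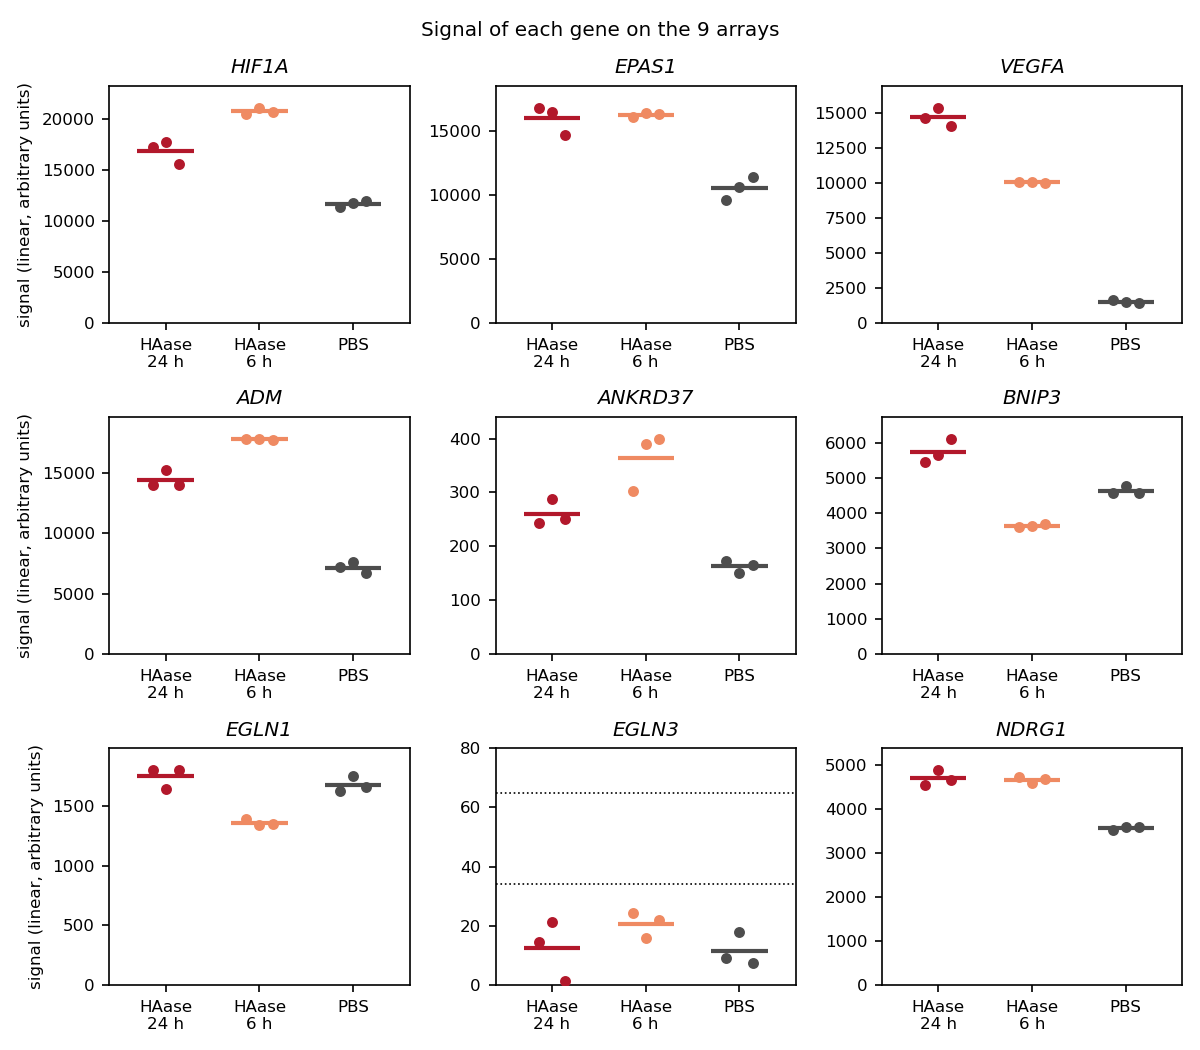
Signal (linear, arbitrary units, axes from 0) of the 9 genes with a probe set, with 1 point per array, the mean as a bar, and the groups HAase 24 h, HAase 6 h and PBS from left to right; dotted lines in the EGLN3 panel mark the lowest and highest limit of detection over the arrays. VEGFA lay between 14030.1 and 15353 at 24 h and between 1394 and 1663 in PBS, while BNIP3 and EGLN1 were lowest at 6 h.

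Among the targets, VEGFA had the largest change of the 8 tested genes in both comparisons with PBS. It encodes vascular endothelial growth factor A, the secreted ligand that drives vessel sprouting. Its brightest probe set gave 14579.9, 15353 and 14030.1 at 24 h, 10059, 10070.1 and 10007 at 6 h, and 1663, 1500.5 and 1394 in PBS. The 3 groups did not overlap, with 24 h highest and PBS lowest. VEGFA rose 9.57-fold at 24 h (log2 fold change 3.26 ± 0.07 SE, limma adjusted p = 4.56e-08) and 6.57-fold at 6 h (2.72 ± 0.07, limma adjusted p = 1.43e-07), and 24 h exceeded 6 h by 0.54 ± 0.07 (limma adjusted p = 8.88e-04). All 4 VEGFA probe sets rose in these comparisons. The other 3 gave 2.34, 3.22 and 3.03 at 24 h, 1.61, 2.35 and 2.19 at 6 h, and 0.73, 0.87 and 0.84 between the times. The probe set with 3.22 was above the limit of detection on 2 of the 3 PBS arrays, so the size of its change is uncertain.

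ADM, the gene of adrenomedullin, a secreted vasodilator peptide, was also higher at both times. Its signals were 13998, 15235.5 and 13991.5 at 24 h, 17787, 17852 and 17719.9 at 6 h, and 7189, 7598 and 6671 in PBS. As with HIF1A, the groups did not overlap and 6 h was highest. ADM rose 2.01-fold at 24 h (1.01 ± 0.06 SE, limma adjusted p = 8.52e-06) and 2.49-fold at 6 h (1.31 ± 0.06, limma adjusted p = 3.00e-06), and 24 h was below 6 h (-0.30 ± 0.06, limma adjusted p = 0.00793).

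ANKRD37, an ankyrin repeat protein gene known as a HIF target, was dim but above the limit of detection on every array. It read 243.0, 288.5 and 250.2 at 24 h, 303.4, 389.1 and 400.0 at 6 h, and 173.5, 150.5 and 164.8 in PBS. Its groups followed the order of ADM and HIF1A without overlap. It rose by 0.63 ± 0.12 at 24 h (SE; limma adjusted p = 0.00336) and 2.11-fold at 6 h (1.08 ± 0.12, limma adjusted p = 2.12e-04). The fall between 6 h and 24 h (-0.45 ± 0.12, limma adjusted p = 0.0193) was not called without 24 h replicate 1 or 3 or without 6 h replicate 2 or 3 (adjusted p between 0.0591 and 0.0641). A second probe set lay under the filter, and with the mean of both the call at 24 h (0.26, limma adjusted p = 0.278) and that between the times (-0.53, limma adjusted p = 0.0554) were lost.

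NDRG1 encodes a stress-induced cytoplasmic protein and is a standard hypoxia marker. It had 4536, 4887 and 4661 at 24 h, 4708, 4586 and 4682 at 6 h, and 3509, 3579 and 3573 in PBS. The HAase groups overlapped each other and both stood clear of PBS. The rise was 0.40 ± 0.05 at 24 h (SE; limma adjusted p = 3.24e-04) and 0.39 ± 0.05 at 6 h (limma adjusted p = 4.20e-04), with a 24 h minus 6 h difference of 0.01 (95% confidence interval -0.10 to 0.12).

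BNIP3, a HIF target whose protein promotes the removal of mitochondria by autophagy, changed in opposite directions at the 2 times. Its brighter probe set gave 5449, 5663 and 6123 at 24 h, 3596, 3631 and 3707 at 6 h, and 4563, 4767 and 4569.95 in PBS. No groups overlapped, with 24 h above PBS and 6 h below it. BNIP3 rose by 0.31 ± 0.06 at 24 h (SE; limma adjusted p = 0.00327) and fell by 0.34 on the log2 scale at 6 h (limma adjusted p = 0.00189), and 24 h exceeded 6 h by 0.65 ± 0.06 (limma adjusted p = 1.12e-04). A second probe set read 1918, 1985 and 1985 at 24 h, 1323, 1459 and 1208 at 6 h, and 1459, 1663 and 1599 in PBS. It passed at 24 h (0.32, limma adjusted p = 0.0222) and between the times (0.56, limma adjusted p = 0.00239), but not at 6 h (-0.24, limma adjusted p = 0.0613).

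Over the 8 tested genes, 7 were higher and 0 lower at 24 h, where 17.5% of all 13842 genes tested were called higher and 22.8% lower. The median log2 fold change was 0.56, beside -0.03 over all genes. At 6 h, 6 were higher and 2 lower, EGLN1 and BNIP3, beside 15.0% and 27.4% of all genes, and the medians were 0.73 and -0.08. Between 24 h and 6 h, VEGFA, BNIP3 and EGLN1 were called higher and HIF1A, ADM and ANKRD37 lower, beside 19.7% and 13.3% of all genes, and the medians were -0.01 and 0.05. The groups did not overlap for 7 of the 8 genes at 24 h (52.0% of all genes), for 8 at 6 h (54.2%) and for 6 between the times (45.9%). By probe set, 11 of the 15 tested were higher and 0 lower at 24 h (14.5% and 18.8% of all 26599 probe sets tested), 10 higher and 2 lower at 6 h (13.0% and 20.4%), and 7 higher and 3 lower between the times (13.6% and 11.3%). The comparisons share arrays, so they are not independent of each other.

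**Figure D2:**
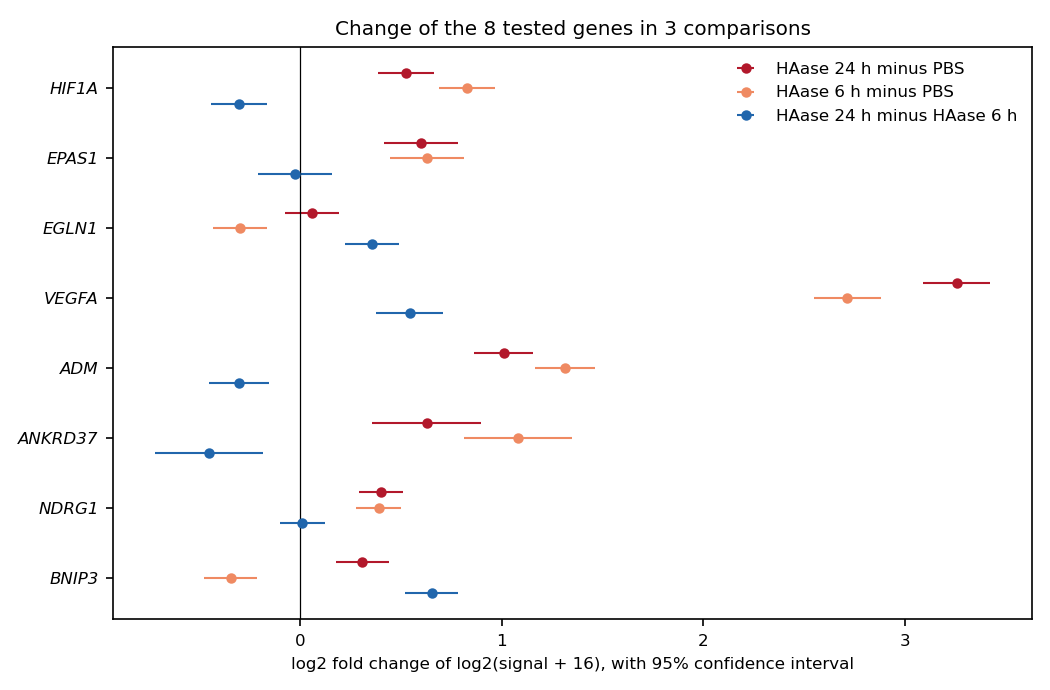
Log2 fold change of log2(signal + 16) of the 8 tested genes, with 95% confidence intervals, for HAase 24 h minus PBS, HAase 6 h minus PBS, and HAase 24 h minus HAase 6 h. VEGFA stands apart at 3.26 and 2.72, and BNIP3 is on opposite sides of 0 at 24 h (0.31) and 6 h (-0.34).

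**Figure D3:**
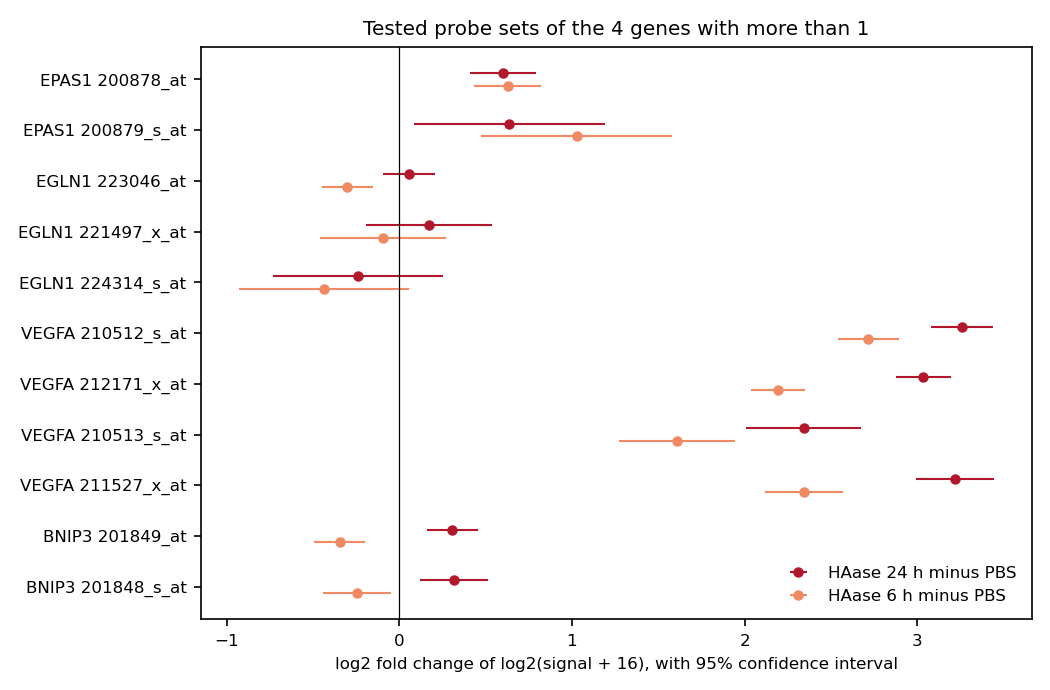
Log2 fold change with 95% confidence interval for each tested probe set of the 4 genes with more than 1, at HAase 24 h minus PBS and HAase 6 h minus PBS. The 4 VEGFA probe sets lie between 2.34 and 3.26 at 24 h, and the dimmer EPAS1 and EGLN1 probe sets have the wide intervals.

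The promoters of 4 genes are shown because their transcripts had 2 different time courses: ANKRD37 and ADM were highest at 6 h, and BNIP3 and EGLN1 lowest. Each is the 250 bases before the transcript start, 5′ to 3′ on the gene's strand, from RefSeq (GRCh38.p14), at chr4:185396591-185396840 on the plus strand for ANKRD37, chr11:10304823-10305072 on the plus strand for ADM, chr10:131981924-131982173 on the minus strand for BNIP3 and chr1:231422288-231422537 on the minus strand for EGLN1. Capitals mark ACGTG and GCGTG, the core forms of the hypoxia response element, on either strand. The palindrome CACGTG holds 2 overlapping matches.
ANKRD37: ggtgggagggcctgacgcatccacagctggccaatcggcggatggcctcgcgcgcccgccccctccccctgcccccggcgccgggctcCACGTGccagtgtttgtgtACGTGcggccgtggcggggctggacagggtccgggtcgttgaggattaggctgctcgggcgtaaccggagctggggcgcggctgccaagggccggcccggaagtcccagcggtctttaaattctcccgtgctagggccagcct
ADM: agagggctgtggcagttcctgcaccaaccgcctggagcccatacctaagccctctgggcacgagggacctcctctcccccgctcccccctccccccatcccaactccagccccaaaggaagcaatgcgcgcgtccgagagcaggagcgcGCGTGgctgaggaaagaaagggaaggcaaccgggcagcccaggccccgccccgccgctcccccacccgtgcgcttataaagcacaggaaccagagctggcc
BNIP3: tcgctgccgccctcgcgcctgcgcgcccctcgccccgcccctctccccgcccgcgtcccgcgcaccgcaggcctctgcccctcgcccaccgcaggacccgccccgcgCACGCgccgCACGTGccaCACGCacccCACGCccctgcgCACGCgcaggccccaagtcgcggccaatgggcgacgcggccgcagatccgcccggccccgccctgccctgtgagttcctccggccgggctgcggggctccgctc
EGLN1: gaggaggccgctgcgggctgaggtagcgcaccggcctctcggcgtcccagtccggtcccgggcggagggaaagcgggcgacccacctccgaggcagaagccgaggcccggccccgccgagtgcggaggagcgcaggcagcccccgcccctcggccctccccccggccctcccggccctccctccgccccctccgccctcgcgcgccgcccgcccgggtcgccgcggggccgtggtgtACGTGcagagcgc

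ANKRD37 held 3 matches to ACGTG, BNIP3 held 2 and EGLN1 held 1, the last 13 bases from the start. ADM had 1 match to GCGTG and 0 to ACGTG, and BNIP3 had 4 to GCGTG. For the 10 genes, windows on chromosome 8 were left out, which was not done for the shares of all windows given below. A window was used for 8 of the 10 genes, and none for VEGFA or NDRG1. NDRG1 lies on chromosome 8, so that rule left out any window of it, and the counts below do not cover it. ACGTG was in 4 of these 8, namely CA9, ANKRD37, BNIP3 and EGLN1, beside 18.51% of 35116 windows of the same length. Either form was in 7 of 8 genes, EGLN3 being the exception, beside 43.21% of all windows. The units differ, because a gene counted if any of its windows matched. HIF1A also had another window without a match. The matches are letters in a window and were not measured as binding, and both time courses occur with them.

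The other genes of the pathway were followed as 5 lists, whose counts stand beside 17.5% higher and 22.8% lower of all genes at 24 h and 15.0% and 27.4% at 6 h. Of 18 tested regulators of HIF, 2 rose and 3 fell at 24 h and 4 rose and 5 fell at 6 h, with medians of 0.01 and -0.02. These are 11.1% and 16.7% of the list at 24 h, both below the shares of all genes. At 6 h they are 22.2% higher, above the 15.0% of all genes, and 27.8% lower, near the 27.4%. At 6 h, 2 regulators were called higher without 6 h replicate 2, 6 h replicate 3 or PBS replicate 1, and 3 were called lower without 6 h replicate 3. CITED2, a HIF-inducible protein that competes with HIF for its coactivators, rose by 0.94 at 24 h (limma adjusted p = 6.89e-05) and 0.48 at 6 h (0.00293). SIAH1, a ubiquitin ligase of the EGLN proteins, fell at both times (log2 fold changes -0.92 at 24 h and -0.77 at 6 h, limma adjusted p at most 3.90e-05), but its other probe set was not called (-0.45 and -0.37, limma adjusted p = 0.0729 and 0.135). CITED4, another coactivator-binding gene, was at or below the limit of detection on all PBS arrays and was at least 1.49-fold higher at 24 h and at least 1.40-fold higher at 6 h (limma adjusted p = 0.0131 and 0.0207). The 6 h call for CITED4 was lost without 6 h replicate 2, 6 h replicate 3 or PBS replicate 1 (adjusted p between 0.0516 and 0.0599).

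ARNT, the partner subunit, fell by 0.36 at 6 h (limma adjusted p = 0.00749) and gave -0.23 at 24 h (0.0445), a call lost in 14 of 19 alternatives (adjusted p between 0.0237 and 0.144 over all), among them the omission of any array except 24 h replicate 3. VHL rose by 0.39 at 6 h (limma adjusted p = 0.0136), gave -0.10 at 24 h (0.462), and was lower at 24 h than at 6 h (-0.49, 0.00633). HIF1AN, the asparagine hydroxylase that blocks coactivator binding, fell by 0.25 at 24 h (0.00690) and gave 0.01 at 6 h (0.938). With the mean of their probe sets, ARNT lost its call at 6 h (0.151), VHL at 6 h (0.224) and between the times (0.407), and HIF1AN at 24 h (0.227). USP20, a deubiquitinase that acts on HIF1A protein, fell by 0.51 at 6 h (limma adjusted p = 0.0106). EGLN2, the remaining HIF prolyl hydroxylase gene, lay under the filter.

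Of 21 tested targets in glucose metabolism, 5 rose and 6 fell at 24 h and 5 rose and 3 fell at 6 h, with medians of -0.015 and -0.0021. These are 23.8% and 28.6% of the list at 24 h and 23.8% and 14.3% at 6 h, so at 24 h both shares were near those of all genes. The genes of the glycolytic regulators PFKFB4 (2.38 at 24 h, 1.64 at 6 h) and PFKFB3 (1.36, 1.47), the glucose transporter gene SLC2A3 (1.82, 2.79) and the hexokinase gene HK1 (1.12, 0.68) rose at both times, with limma adjusted p of at most 8.60e-05. The aldolase gene ALDOC fell by 1.36 at 24 h (limma adjusted p = 5.48e-04). The other genes called lower there were AK4 (-1.24), PGM1 (-1.09), GBE1 (-1.01), GYS1 (-0.57) and GPI (-0.25). Several classical glycolytic targets did not pass the test: LDHA gave 0.05 and 0.06 (0.622 and 0.532), PGK1 0.11 and 0.01 (0.0856 and 0.878) and the pyruvate dehydrogenase kinase gene PDK1 -0.15 at both times (0.210 and 0.220). A second PGK1 probe set was called higher at 24 h (0.21, limma adjusted p = 0.0194), and the first passed there with a trended and robust variance model (0.0211). The transporter gene SLC2A1 gave 0.17 at 24 h (0.210) and 0.35 at 6 h (0.0243); the 6 h call was lost in 5 of 19 alternatives, 4 of them the omission of 6 h replicate 1 or 2 or PBS replicate 2 or 3, and without PBS replicate 1 it passed at 24 h (0.28, 0.0336).

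Of 8 tested targets in matrix and collagen hydroxylation, 7 rose and 0 fell at 24 h and 4 rose and 0 fell at 6 h, and the medians were 0.65 and 0.11. Between the times 7 were higher and 0 lower at 24 h, beside 19.7% and 13.3% of all genes. P4HA2, a collagen prolyl hydroxylase subunit gene, had signals of 7766 ± 463 at 24 h, 5063 ± 123 at 6 h and 3289 ± 85.1 in PBS (SD, n = 3 each), a rise of 1.23 at 24 h and 0.62 at 6 h (limma adjusted p = 1.70e-06 and 1.01e-04). Its relative P4HA1 rose at 24 h (0.62, limma adjusted p = 3.06e-05) and gave -0.05 at 6 h (0.495). ERO1A, an oxidase of the endoplasmic reticulum, rose by 0.90 and 0.34, and the collagen crosslinker gene LOX rose by 0.69 at 24 h. LOXL2, another crosslinker gene, rose by 0.73 at 24 h, a call lost with the mean of its probe sets (limma adjusted p = 0.0873), and gave 0.18 at 6 h (0.0440), where the 6 h call was lost in 11 of 19 alternatives, among them the omission of any 6 h or PBS array or of 24 h replicate 2 (adjusted p between 0.0595 and 0.132). The 6 h call of the collagen lysyl hydroxylase gene PLOD2 (0.20, 0.0156) was lost without 6 h replicate 2 (0.0541) or PBS replicate 2 (0.0546), when the list's count at 6 h was 2, and with quantile normalization (0.101).

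Of 9 tested genes of vessels and secreted factors, 4 rose and 1 fell at 24 h and 4 rose and 2 fell at 6 h, with medians of 0.13 and 0.11. The count higher at 24 h was 3 when any single array was left out. STC1, the gene of the secreted hormone stanniocalcin, had 2106 ± 54.9 at 24 h, 1452 ± 66.7 at 6 h and 225 ± 23.6 in PBS (SD, n = 3 each), rises of 8.85-fold and 6.11-fold (limma adjusted p = 6.95e-08 and 2.20e-07). Other STC1 probe sets were also called higher, with smaller log2 fold changes. They gave 1.72 and 2.54 at 24 h (3.15 for the brightest) and 1.62 and 2.12 at 6 h (2.61). The vasoconstrictor gene EDN1 and the lipase inhibitor gene ANGPTL4 were at or below the limit of detection on all PBS arrays. EDN1 was at least 6.34-fold higher at 24 h and at least 5.54-fold higher at 6 h, and ANGPTL4 at least 5.84-fold and at least 4.22-fold (limma adjusted p of at most 6.46e-05). A second EDN1 probe set was also called higher (3.44 at 24 h and 3.23 at 6 h), and another was not called (0.44 at both times). The chemokine receptor gene CXCR4 fell at both times (log2 fold changes -2.0 at 24 h and -3.12 at 6 h, limma adjusted p of at most 1.69e-06). The fall of STC2 at 6 h (-0.61, limma adjusted p = 0.0456) was the other of the 2 lower calls, although its 6 h and PBS arrays overlapped. STC2 was above the limit of detection on 2 of the 3 arrays at 6 h, so the size of its change is uncertain. At 6 h, 1 gene of the list was called lower when any array except 6 h replicate 2 was left out.

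Of 22 other targets, 10 rose and 6 fell at 24 h and 5 rose and 9 fell at 6 h, with medians of 0.14 and -0.18. These are 45.5% and 27.3% of the list at 24 h and 22.7% and 40.9% at 6 h, of which the share lower at 24 h was near that of all genes. DDIT4, an mTOR inhibitor gene, had 3703 ± 140 at 24 h, 1786 ± 127 at 6 h and 409 ± 36.0 in PBS (SD, n = 3 each), and rose by 3.13 and 2.09 (limma adjusted p = 8.03e-08 and 8.78e-07). The lipid droplet gene PLIN2 rose by 1.19 and 1.63 (calls lost with the mean of its probe sets, limma adjusted p = 0.0774 and 0.0759), the carbonic anhydrase gene CA12 by 1.06 and 0.57, and the transcriptional repressor gene BHLHE40 by 0.61 and 1.47. Another CA12 probe set gave -0.05 and -0.28, neither called, while the rest of the tested CA12 probe sets were called higher at both times. The second BHLHE40 probe set was not called at 24 h (0.28, limma adjusted p = 0.301). BHLHE41, the paralogue of BHLHE40, fell at both times (-1.71 at 24 h and -0.66 at 6 h), although a second probe set was not called. The lipoprotein receptor gene VLDLR fell by 1.35 at 6 h, rose by 0.58 at 24 h and differed by 1.92 between the times (limma adjusted p = 3.10e-05). BNIP3L, the paralogue of BNIP3, fell at both times (-0.26 at 24 h and -0.33 at 6 h, limma adjusted p = 0.00357 and 0.00107), whereas BNIP3 was higher at 24 h.

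**Figure D4:**
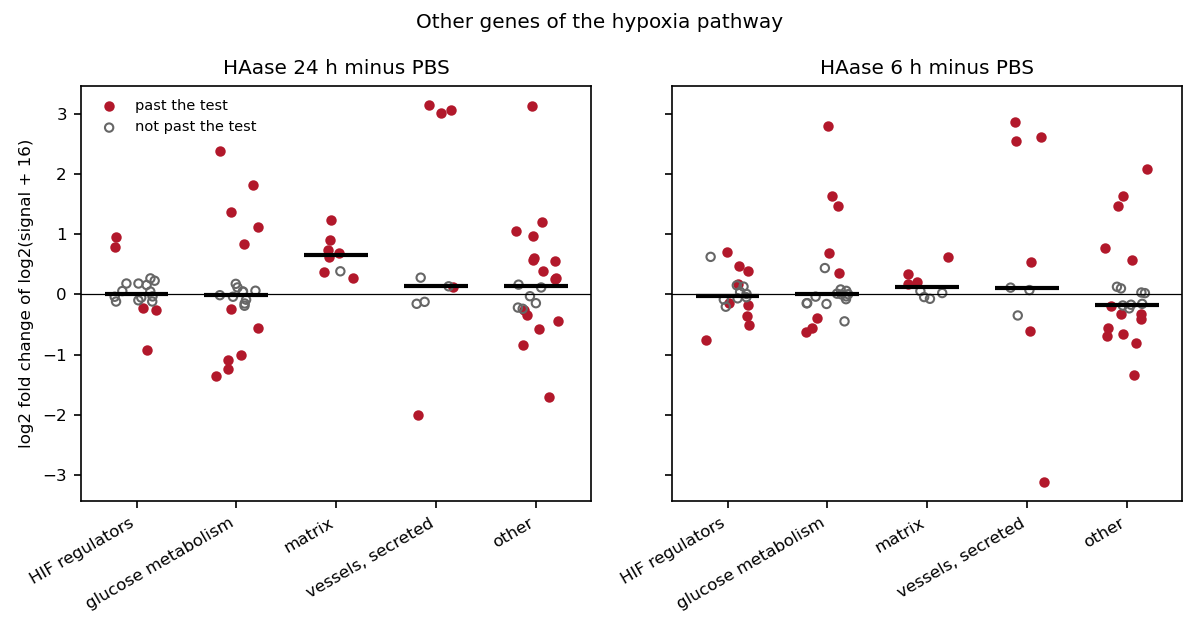
Log2 fold change of log2(signal + 16) of each tested gene of the 5 lists, for HAase 24 h minus PBS and HAase 6 h minus PBS; filled points passed the test, open points did not, and bars are list medians. The matrix list is above 0 at 24 h (median 0.65), while the other lists hold genes on both sides.

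The genes whose log2 signal followed these transcripts most closely over the 9 arrays are given as a description, and the 9 points of each correlation fall into the 3 groups. For HIF1A they were PPP2CB, NFIL3 and RAP1B (Pearson's r of 0.997, 0.997 and 0.994), for EPAS1 they were CCT2, ZFP91 and RRM2 (0.994, 0.989 and 0.988), and for VEGFA they were ADGRG1, TMEM158 and LHFPL2 (0.999 each). NFIL3, for example, read 6200.4 ± 234 at 24 h, 7071 ± 106 at 6 h and 4725 ± 5.26 in PBS (SD, n = 3 each), the same order as HIF1A.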

How the data were processed

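Signals were measured on Affymetrix arrays in 9 samples, 3 per group. The authors deposited a signal intensity on a linear scale for every probe set, derived from CHP files per the series' design text, with an algorithm not given in the sources used here. Trimmed means (2% at each end) were 500.07 to 500.075 on every array, and array medians were 55.8 to 61.3. The number of arrays limits the precision.

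Of 54675 probe sets, 41091 had 1 gene symbol, 1801 several and 11721 none, and 62 were controls. The gene IDs of 41037 matched RefSeq (GRCh38.p14), and 0 symbols were updated. The scale was log2(signal + 16), without added normalization, and understates the changes of dim probe sets. For each of 19775 genes the probe set with the highest mean was kept; genes under the 30th percentile (signal 32.2) were left out, leaving 13842. Limma 3.58.1 in R 4.3.3 (lmFit, eBayes) was fitted to all 9 arrays, with Benjamini-Hochberg adjustment over all tested genes within each comparison and calls at 0.05. All 26599 probe sets above the filter were fitted likewise. The script was tested on simulated data. "At least" folds were computed against each array's limit of detection.

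The 10 genes, the lists, the tests and the alternatives were chosen with earlier results of these data known. Named were all 10 genes and up to 4 called genes per list and comparison with PBS by size of change. Named in every comparison were 9 others (ARNT, HIF1AN, VHL, EGLN2, BNIP3L, SLC2A1, PDK1, PGK1, LDHA). STC2, P4HA1, HMGA2, COL1A2, PDGFRB, AK4, PGM1, GBE1, GYS1 and GPI were named after their values were seen. Genes were set beside HIF1A, EPAS1 and VEGFA by Pearson's r. Alternatives were other pseudocounts, scalings, filters, the mean of probe sets, another variance model, a replicate block, a fit of 2 groups, and each array left out.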

Additional observations from a re-analysis of the deposited data

Results flagged for a closer look

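For 6 of the 8 tested genes, the changes at 24 h and 6 h against the same PBS arrays differed in limma's direct test of 24 h against 6 h. Of all 13842 genes tested, 19.7% were called higher and 13.3% lower in that test. HIF1A (log2 fold change -0.30), ADM (-0.30) and ANKRD37 (-0.45) were lower at 24 h than at 6 h while above PBS at both times. VEGFA (0.54) was higher at 24 h than at 6 h and above PBS at both. BNIP3 (0.65) and EGLN1 (0.36) were higher at 24 h than at 6 h and below PBS at 6 h.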

How the results depend on the processing

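Of 456 recomputed values of the 8 tested genes, 443 kept their direction and their side of the threshold, 9 lost a call and 4 turned sign without a call. With the mean of a gene's probe sets, 1 gene was called lower at 6 h (2 otherwise), 5 were called higher at 24 h (7 otherwise), and 2 were higher and 2 lower between the times (3 and 3 otherwise). Leaving out each array gave 7 genes higher at 24 h, 6 higher and 2 lower at 6 h, and 3 higher and 2 to 3 lower between the times. Same-numbered arrays of different groups did not deviate together (correlation of residuals between -0.05 and 0.04), nor did those of different number (-0.06 to 0.06). The residuals gave no sign of pairing, but they cannot show whether same-numbered samples were handled together. The fit with a replicate block called 7 genes higher at 24 h, 6 higher and 2 lower at 6 h, and 3 higher and 3 lower between the times; over all genes it called 5187, 5447 and 4117, against 5577, 5863 and 4567 without it.

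Signs turned for small, uncalled changes. Leaving out single arrays gave, between 24 h and 6 h, -0.066 to 0.032 for EPAS1, -0.019 to 0.035 for NDRG1, -0.073 to 0.063 for PDK1 and -0.046 to 0.047 for LDHA; at 6 h, -0.023 to 0.036 for HIF1AN and -0.010 to 0.022 for PGK1; and at 24 h, -0.052 to 0.00038 for MXI1. With the mean of probe sets, ARNT gave -0.0079 between the times, HIF1AN -0.057, PDK1 0.037 and PGK1 -0.021 at 6 h, and VHL 0.088 at 24 h. With quantile normalization, EPAS1 gave 0.0046 between the times and PGK1 -0.038 at 6 h. The causes were not tested. Over all alternatives, regulators called were 2 to 4 higher and 1 to 4 lower at 24 h, 2 to 5 higher and 3 to 6 lower at 6 h, and 0 to 2 lower between the times. Matrix genes were 2 to 4 higher at 6 h and 3 to 7 between the times, vessel genes 3 to 4 higher at 24 h and 1 to 2 lower in each comparison, and other targets 3 to 5 lower between the times. Signal over background limits EGLN3, the dimmer EPAS1 probe set and genes at the limit of detection in PBS.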

Other observations

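Of the other hypoxia targets, 4 chosen after their values were seen were lowest at 6 h, as BNIP3 was. In their list, 9 of the 22 tested genes were called lower at 6 h, beside 27.4% of all genes. VLDLR and ZNF395 were also lowest at 6 h, while PLIN2 and BHLHE40 were highest there. The share of all genes with their lowest signal at 6 h was not computed. The histone demethylase gene KDM3A had signals of 2618 ± 98.5 at 24 h, 1737 ± 27.4 at 6 h and 1991 ± 77.7 in PBS (SD, n = 3 each), and 24 h exceeded 6 h by 0.59 (limma adjusted p = 1.31e-04). Its fall at 6 h (-0.19, limma adjusted p = 0.0193) was lost without 6 h replicate 2 or 3 or PBS replicate 3 (adjusted p between 0.0557 and 0.0625) and with equal array medians (0.101), and with the mean of its probe sets no KDM3A comparison passed (24 h minus 6 h, 0.122). MXI1, whose protein opposes MYC, fell by 0.69 at 6 h and was 0.65 higher at 24 h than at 6 h. NARF fell by 0.42 at 6 h with a difference of 0.58 between the times, and TMEM45A fell by 0.55 with a difference of 0.41 (limma adjusted p of at most 0.00177 for these 6 values). At 24 h against PBS, MXI1 (-0.03), NARF (0.16) and TMEM45A (-0.15) were not called.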
